A study of Mus musculus with 12 samples.

Results

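The genes described here are the 130 long intergenic noncoding RNAs (lincRNAs) with appreciable read counts in mouse kidney. They were chosen by their values: a gene of type lincRNA entered if its raw count was at least 10 in at least 3 of the 12 libraries. The table held 16383 genes, 1679 of them lincRNAs, of which 710 had a count above 0 in any library. The libraries were WT I/R, WT sham, KO I/R and KO sham, 3 of each, where KO carries the label Lrrk2-/- (no Lrrk2, leucine-rich repeat kinase 2) and WT is wild type. I/R is 30 min of ischemia of the left kidney at 37 °C followed by reperfusion, with removal of the opposite kidney; sham mice went through all of this except ischemia. Neither the reperfusion time nor the age, sex, strain background and pooling of the animals is given in the sources used here, and no label ties a library to a separate animal, so every p-value measures only the spread between these libraries.

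A lincRNA is a spliced or unspliced RNA polymerase II transcript without a long open reading frame that lies between protein-coding genes. Some hold a structural or regulatory role, as Neat1 does as the scaffold of nuclear paraspeckles, and some are hosts whose introns are processed into small nucleolar RNAs (snoRNAs), which guide the chemical modification of ribosomal RNA. Many others have no known function. In kidney, I/R injures the proximal tubule most, and injured tubule cells lose transport genes and switch on injury genes.

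Several libraries stood apart before any comparison. Lrrk2 had 401, 235 and 793 counts in KO I/R, 598, 1651 and 207 in KO sham, 320, 381 and 464 in WT I/R and 2053, 1284 and 1839 in WT sham, so its gene count did not separate the genotype labels, and each genotype direction below rests on the label. In KO I/R 2 the count and FPKM columns (a level scaled to gene length and library size) did not match. Of all 16383 genes, 936 had an FPKM above 0 with a count of 0, and 533 had the reverse. Among the 130 lincRNAs it was 5 and 4. Their counts in this library summed to 9865 as deposited and to 10413 when read back from its FPKM. Mitochondrial genes held 24.7% of the counts in KO sham 3, and Y-chromosome genes had 5 counts in KO sham 1, where other libraries had 30 to 157. KO sham 3 was also the library with the highest CPM (counts scaled to library size) for 51 of the 129 lincRNAs tested, 39.5%, against 18.1% of all genes tested. Each library held between 9784 and 38953 counts on the 130 lincRNAs.

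By position, 127 of the 130 loci equalled those of GENCODE release M21 on GRCm38, where 126 are lincRNAs. Erdr1 (named Gm21887 there) and Gm10134 are protein coding in that release, Snhg15 is a processed transcript, and Gm50475 was not matched. The lincRNAs lay on 21 chromosomes, and 120 carried a predicted or clone symbol. Their exons, merged over transcripts, had a median length of 1789 bases, and 27 formed a single block. The median distance to the nearest protein-coding locus was 3790.5 bases. In 19 cases the locus overlapped a protein-coding one, 14 of them exon on exon, and 27 started within 1000 bases of a protein-coding start on the opposite strand. Use of strand in the counting is not given, so reads of these overlapping pairs cannot be told apart. Among the well-known neighbours, Pantr1 lies head to head with Pou3f3, a nephron transcription factor gene, Gm17501 with Ccn1, which encodes a matricellular protein, and BC049987 with Treh, the gene of the brush-border enzyme trehalase. Of the 130, 6 host a snoRNA or its Cajal body relative, among them Snhg15 (Snora9), Snhg6 (Snord87), 2700038G22Rik (Snord93) and Snhg10 (Scarna13), and 5 host a microRNA.

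The RefSeq promoter table of GRCm38.p6 held 57 of the 130. Of these 57, some passed in the same direction in both genotype labels. Among them, promoters are shown for the 2 rises and the 2 falls of largest fitted log2 fold change in WT. Gm5524 is shown beyond this planned choice, since it had the largest fitted fall in KO among them. Without a promoter entry, 1110019B22Rik fell further in KO (log2 fold change -6.04). For Gm33472 and 4930434B07Rik the WT I/R group was at 0 counts, so that their fitted value orders them but is no size. Each run covers 250 bases before to 50 after the RefSeq start, on the gene's own strand, with matches of the motifs searched in capitals.
Morrbid, higher after I/R, chr2:128429302-128429601, minus strand: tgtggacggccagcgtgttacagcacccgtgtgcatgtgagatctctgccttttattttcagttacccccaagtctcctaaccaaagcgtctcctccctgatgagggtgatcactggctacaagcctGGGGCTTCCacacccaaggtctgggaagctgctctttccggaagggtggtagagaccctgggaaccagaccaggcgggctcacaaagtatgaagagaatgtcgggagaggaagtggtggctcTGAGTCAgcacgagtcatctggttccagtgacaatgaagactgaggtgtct
Gm17501, higher after I/R, chr3:145649827-145650126, plus strand: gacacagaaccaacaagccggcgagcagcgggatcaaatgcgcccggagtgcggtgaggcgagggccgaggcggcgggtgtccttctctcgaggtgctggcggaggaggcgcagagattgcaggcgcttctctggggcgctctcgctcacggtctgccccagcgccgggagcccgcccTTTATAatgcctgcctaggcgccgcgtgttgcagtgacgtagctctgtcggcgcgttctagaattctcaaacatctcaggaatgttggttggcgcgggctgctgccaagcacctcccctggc
Gm33472, lower after I/R, chr14:59045895-59046194, minus strand: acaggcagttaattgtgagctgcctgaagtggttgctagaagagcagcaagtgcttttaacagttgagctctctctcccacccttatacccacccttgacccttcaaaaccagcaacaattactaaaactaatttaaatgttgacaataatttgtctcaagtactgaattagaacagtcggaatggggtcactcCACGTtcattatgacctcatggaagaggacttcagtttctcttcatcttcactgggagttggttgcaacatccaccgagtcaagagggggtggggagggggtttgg
4930434B07Rik, lower after I/R, chr1:90153242-90153541, plus strand: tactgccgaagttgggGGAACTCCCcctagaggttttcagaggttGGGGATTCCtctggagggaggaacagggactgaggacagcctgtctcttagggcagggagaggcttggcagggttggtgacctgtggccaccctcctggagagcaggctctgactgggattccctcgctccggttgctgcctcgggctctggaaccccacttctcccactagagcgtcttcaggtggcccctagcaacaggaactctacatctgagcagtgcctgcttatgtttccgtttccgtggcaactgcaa
Gm5524, lower after I/R, chr1:27883796-27884095, plus strand: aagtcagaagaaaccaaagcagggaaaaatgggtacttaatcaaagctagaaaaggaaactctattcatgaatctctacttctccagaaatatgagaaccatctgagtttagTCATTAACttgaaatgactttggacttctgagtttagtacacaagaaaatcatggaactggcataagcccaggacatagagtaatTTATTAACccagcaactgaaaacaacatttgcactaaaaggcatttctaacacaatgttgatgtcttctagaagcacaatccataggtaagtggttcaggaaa
The motifs, searched on both strands, were the TATA box TATAAA, the AP-1 site TGANTCA, the STAT site TTCNNNGAA, the hypoxia response element ACGTG, the heat shock element GAANNTTC, the HNF1 site GTTAATNA, the HNF4 site CAAAGTCCA and the NF-kB site GGGNNTTCC. Morrbid held 1 AP-1 match and 1 NF-kB match, Gm17501 held 1 TATA box match, Gm33472 held 1 hypoxia element match, 4930434B07Rik held 2 NF-kB matches, and Gm5524 held 2 HNF1 matches. An AP-1 match was found in 7.81% of all 32851 promoters of the table, an NF-kB match in 5.82%, a TATA box in 13.6% and a hypoxia element in 19.6%. The shares were 8.30% for STAT, 7.86% for heat shock, 2.54% for HNF1 and 0.475% for HNF4. Among the 57 lincRNA promoters the counts were 7 with AP-1, 7 with NF-kB, 8 with a TATA box, 15 with a hypoxia element, 4 with heat shock, 4 with HNF1, 3 with STAT and 0 with HNF4. These are matches of letters and say nothing on binding. The RefSeq starts of Morrbid and Gm33472 lie 73414 and 15119 bases inside the GENCODE locus, so other starts of both genes are not shown.

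Per length, the lincRNAs were expressed below protein-coding genes. The mean FPKM over merged exons had a median of 0.981 over the 129 lincRNAs with a length, with quartiles of 0.359 and 2.21, against a median of 4.0 and quartiles of 1.17 and 11.8 for the 4184 protein-coding genes past the same count rule. Of the 129, 64 reached 1 FPKM. These levels use the 11 libraries whose columns match. The deposited FPKM divides by a longer length, in which exons shared by transcripts are counted repeatedly, so it understates genes with several isoforms. Erdr1 was highest at 69.1 FPKM over merged exons, against 18.2 as deposited, followed by Neat1 with 28.3 and Epb41l4aos with 26.9. The next were D630029K05Rik with 22.1, Gm42031 with 21.6, Gm49980 with 21.2 and Snhg6 with 19.3 FPKM. Single libraries varied widely around these means: Erdr1 lay between 0 and 195 FPKM, and Gm42031 between 0.616 and 73.9.

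**Figure D1:**
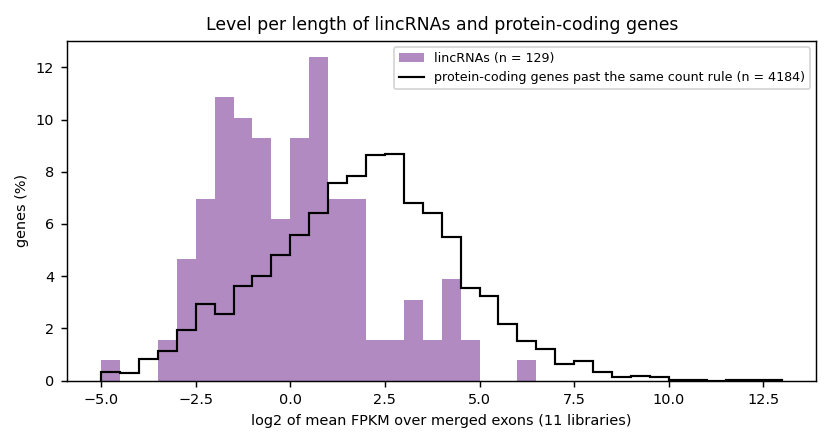
Distribution of the mean level per length, as log2 FPKM over merged exons in 11 libraries, for 129 lincRNAs (filled) and 4184 protein-coding genes past the same count rule (line), each in percent of its set. The lincRNAs sit to the left, with medians of 0.981 and 4.0 FPKM.

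The first question of the design is what I/R did in each genotype. More lincRNAs were lower than higher after I/R. In WT I/R against WT sham, 10 of the 129 lincRNAs tested rose and 28 fell (quasi-likelihood test of edgeR, adjusted p under 0.05 after Benjamini and Hochberg), which is 29.5% of the lincRNAs, against 20.9% of all 5048 genes tested. By direction it was 7.75% against 10.2% of all genes for rises, and 21.7% against 10.7% for falls. In KO I/R against KO sham, 10 rose and 30 fell, 31.0% against 23.5% of all genes, with 7.75% against 11.9% for rises and 23.3% against 11.5% for falls. The median log2 fold change was -0.59 over the lincRNAs and -0.04 over all genes in WT, and -0.73 and -0.08 in KO. Without KO sham 3 the KO median of the lincRNAs was -0.46, with 13 rises and 23 falls. Fitted on the 6 KO libraries alone, the test called 14 lincRNAs (3 rises and 11 falls), and the KO calls that were lost included Morrbid, 2310026L22Rik, 2700038G22Rik, Gm17501, Snhg15, Epb41l4aos, Gm35585, Gm6999, Neat1, Gm42031, D630029K05Rik and 9130016M20Rik. Leaving out a library gave 23 WT calls if WT I/R 1 was the one omitted, 24 for WT I/R 2 and 24 for WT sham 1, and 22 KO calls for KO I/R 1.

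These counts are a description, since the entry rule used the same libraries. A lincRNA that reached 10 counts only in libraries of one surgery entered through that surgery, which favours a difference: 8 did so only in I/R libraries and 15 only in sham libraries. One of them, Gm38563, had 0 counts in all 6 sham libraries, 1.82, 1.28 and 1.74 CPM in WT I/R and 1.48, 2.41 and 0.739 CPM in KO I/R, and was not tested because it missed the filter on low counts. Those named below include Morrbid, 2310026L22Rik, 5330413D20Rik and Rncr4, at 10 counts only in I/R libraries. They also include Gm33472, 4930434B07Rik, Gm48898, 1110019B22Rik, Gm5524 and 2310015A16Rik, at 10 counts only in sham libraries. The calls of all these lincRNAs are descriptions. With the same rule as the filter, 21.7% of protein-coding genes passed in WT and 24.1% in KO. Among the 64 lincRNAs above the median of the mean CPM (5.33), 7 rose and 17 fell in WT, and 6 rose and 22 fell in KO. Among the 65 others, 3 rose and 11 fell in WT, and 4 rose and 8 fell in KO. I/R and sham libraries did not overlap for 77 of the 129 lincRNAs in WT (59.7%, against 55.2% of all genes) and for 49 in KO (38.0%, against 35.3%). Among those that passed it was all 38 in WT, against 99.4% of all genes that passed, and 35 of the 40 in KO (87.5%, against 95.2%). All 38 and all 40 differed at least 2-fold in the fitted value. The share of all passing genes that did so is not given here, so this is not shown to be particular to lincRNAs.

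Many lincRNAs passed in both genotype labels. Of those that passed, 28 did so in the same direction in both, 7 higher and 21 lower, which is 73.7% of the WT calls and 70.0% of the KO calls, against 66.5% and 59.3% for the 703 of all 5048 genes that did so (13.9%). A further 9 passed only in WT and 11 only in KO, which does not by itself show a difference of genotype. In the test of that difference, the interaction, edgeR called 0 lincRNAs and DESeq2 called 2, Gm42031 and Gm49980, the second of which passed only in KO. Gm42031 passed in both with opposite signs. By annotation, the 6 snoRNA or scaRNA hosts gave 3 rises and 0 falls in WT, and 4 rises and 0 falls in KO. Of the 27 with a divergent coding start, 1 rose and 5 fell in each genotype. The 19 that overlap a coding locus gave 2 rises and 4 falls in each. The 20 farther than 50 kb from any coding locus gave 0 rises and 4 falls in WT, and 0 rises and 2 falls in KO.

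**Figure D2:**
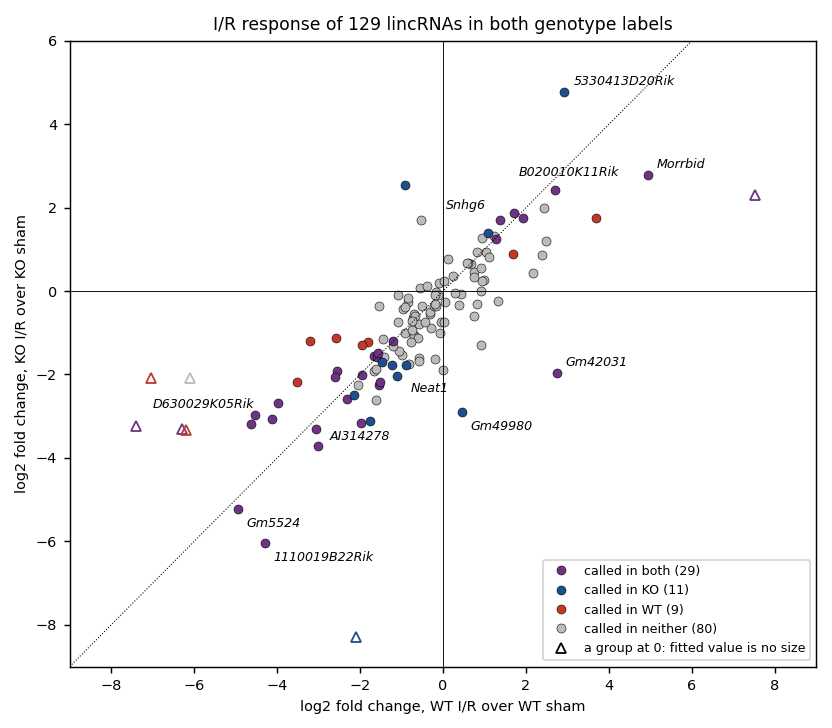
Log2 fold change of 129 lincRNAs after I/R in KO (vertical) and in WT (horizontal), coloured by the comparison in which they passed the edgeR test; triangles have a group at 0 counts, so their fitted value is no size, and the dotted line marks equal change. Of the points that passed in both comparisons, 21 lie at the lower left and 7 at the upper right; Gm42031 lies alone at the lower right.

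Among the rises were 3 of the 6 snoRNA or scaRNA hosts in WT and 4 of the 6 in KO. Snhg6, the host of Snord87, had 123, 123 and 86.4 CPM in WT I/R, against 44.5, 42.7 and 41.7 CPM in WT sham (log2 fold change 1.37, SE 0.23, edgeR adjusted p = 0.00209). It had 112, 129 and 86.6 CPM in KO I/R, against 28.9, 33.3 and 38.6 CPM in KO sham (log2 fold change 1.70, SE 0.23, edgeR adjusted p = 0.000811). The I/R libraries lay above every sham library in both genotypes, and both calls held with each library left out; its locus overlaps Mcmdc2 exon on exon, a gene at 0 to 4.29 CPM over the libraries. 2700038G22Rik, the host of Snord93, had 7.65, 10.2 and 10.5 CPM in WT I/R, against 1.9, 3.4 and 3.35 CPM in WT sham (log2 fold change 1.70, SE 0.42, edgeR adjusted p = 0.014). In KO it had 7.96, 14 and 9.05 CPM after I/R, against 3.87, 1.74 and 2.68 CPM in sham (log2 fold change 1.88, SE 0.42, edgeR adjusted p = 0.00851). The groups did not overlap; the WT call was lost without WT I/R 2 (edgeR adjusted p = 0.0522) or WT sham 1 (0.0583).

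Snhg15, the host of Snora9, had 43.7, 37.3 and 36.6 CPM in WT I/R, against 15.4, 19.4 and 13.8 CPM in WT sham (log2 fold change 1.27, SE 0.40, edgeR adjusted p = 0.0427). It had 47.9, 47.9 and 38 CPM in KO I/R, against 14.7, 8.51 and 33.5 CPM in KO sham (log2 fold change 1.25, SE 0.40, edgeR adjusted p = 0.0428). Its groups did not overlap, but the call was close to the threshold: it was lost with any of the 6 WT libraries left out (edgeR adjusted p up to 0.138) and with 5 of the 6 KO libraries, KO sham 3 being the exception, without which the value was 1.94. Epb41l4aos, an opposite-strand transcript beside Epb41l4a that holds an annotated snoRNA, had 59.6, 41.9 and 48.4 CPM in WT I/R, against 20.2, 26.2 and 24 CPM in WT sham (log2 fold change 1.09, SE 0.40, edgeR adjusted p = 0.0711), which did not pass. It did pass with whole-library totals (1.23), by DESeq2 (1.08), on the WT libraries alone (1.08) and with recovered reads (1.09). Its KO I/R libraries had 61.6, 110.2 and 43.4 CPM, against 17.1, 21.1 and 43.5 CPM in KO sham (log2 fold change 1.40, SE 0.40, edgeR adjusted p = 0.0252), a rise with overlapping groups, lost without KO I/R 2 (edgeR adjusted p = 0.0994), KO sham 1 (0.0796) or KO sham 2 (0.0849). Snhg10 had 4.37, 4.75 and 5.23 CPM in WT I/R, against 1.69, 3.6 and 0.787 CPM in WT sham, and did not pass in WT (edgeR adjusted p = 0.238) or KO (0.196); without KO sham 3 it passed in KO, at 2.68. 2900076A07Rik, which holds Mir1839 and a snoRNA entry at the same place, averaged 9.15 ± 0.595 CPM in WT I/R and 10.4 ± 2.47 CPM in WT sham (SD, n = 3 each) and did not pass in either genotype. On a wider list of snoRNA host RNAs, 9 were in the table, 4 of them among the lincRNAs described here, and 6 of the 9 rose in WT and 5 in KO, with 0 falls. Over all 5048 genes, 10.2% rose in WT and 11.9% in KO. The list was chosen with earlier results of these data known, so its counts are a description.

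Morrbid, a lincRNA beside the gene of the pro-apoptotic protein Bim (Bcl2l11) that is known for control of the lifespan of short-lived myeloid cells, had 8.57, 14.1 and 10.5 CPM in WT I/R, against 0.421, 0.2 and 0.394 CPM in WT sham (log2 fold change 4.93, SE 0.74, edgeR adjusted p = 0.00117). It had 4.07, 14.4 and 5.54 CPM in KO I/R, against 0.645, 0.58 and 2.41 CPM in KO sham (log2 fold change 2.78, SE 0.64, edgeR adjusted p = 0.01). No I/R library overlapped a sham library, and both calls held with each library left out, although the KO value moved to 2.06 without KO I/R 2 and to 3.64 without KO sham 3. Morrbid entered the set through I/R libraries only, so both calls are descriptions. The interaction of genotype and I/R was -2.16 on the log2 scale (edgeR adjusted p = 0.944), which did not pass. Neutrophil markers were higher in the same libraries: Csf3r and Mmp8, the 2 of 5 in the table, both rose in WT and in KO, with sums of 23.6 to 39.4 CPM in WT I/R, 1.38 to 7.01 in WT sham, 18.5 to 37.5 in KO I/R and 1.35 to 8.32 in KO sham. In whole tissue, more cells of a type and more RNA per cell cannot be told apart, and the part of such cells in the rise was not tested. Of the 5 macrophage markers in the table, 1 rose and 2 fell in each genotype, with sums of 178 to 216 CPM in WT I/R and 246 to 332 in WT sham, and 138 to 389 in KO I/R and 258 to 444 in KO sham.

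B020010K11Rik, a clone-named lincRNA of chromosome 18, gave the smallest p among the lincRNAs in both genotypes. It had 93.5, 85.6 and 78.6 CPM in WT I/R, against 9.69, 15.4 and 14.6 CPM in WT sham (log2 fold change 2.70, SE 0.26, edgeR adjusted p = 0.000112). In KO I/R it had 80.1, 74.3 and 58 CPM, against 11.8, 12.6 and 15.6 CPM in KO sham (log2 fold change 2.41, SE 0.26, edgeR adjusted p = 0.000174). Replicates were tight and the groups far apart. Gm17501, whose promoter with its TATA box match is printed above, had 19, 21.8 and 15.9 CPM in WT I/R, against 4.64, 2.4 and 7.67 CPM in WT sham (log2 fold change 1.94, SE 0.49, edgeR adjusted p = 0.0161). It had 13.1, 12 and 13.7 CPM in KO I/R, against 3.23, 1.74 and 6.71 CPM in KO sham (log2 fold change 1.76, SE 0.50, edgeR adjusted p = 0.0244). The groups did not overlap, but the WT call was lost without WT I/R 2 (edgeR adjusted p = 0.0574), WT sham 1 (0.0566) or WT sham 2 (0.0546), and the KO call without KO I/R 1 (0.0549), KO sham 1 (0.072) or KO sham 2 (0.0752); without KO sham 3 the KO value was 2.36.

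2310026L22Rik had 0 counts in all 3 WT sham libraries and 4.37, 4.75 and 4.18 CPM in WT I/R, at least 21.9-fold higher taking 3 counts per group as the floor (edgeR adjusted p = 0.00236). In KO it had 4.44, 3.37 and 3.32 CPM after I/R, against 1.45, 0.58 and 0 CPM in sham (log2 fold change 2.29, SE 0.71, edgeR adjusted p = 0.042), which was lost without any 1 of 4 libraries (edgeR adjusted p up to 0.119), with whole-library totals (2.23) and with no filter on low counts (2.34); it was 3.42 without KO sham 1. Its locus lies 107 bases from that of Hp1bp3. 5330413D20Rik had 6.66, 4.09 and 2.03 CPM in KO I/R, against 0, 0.387 and 0 CPM in KO sham (log2 fold change 4.77, SE 1.14, edgeR adjusted p = 0.0114), with 4.14 without KO sham 1 and 7.46 without KO sham 2. In WT its 1.28, 3.11 and 0.697 CPM after I/R, against 0, 0 and 0.59 CPM in sham, did not pass (edgeR adjusted p = 0.0834). The entry rule selected 5330413D20Rik through I/R libraries only, so its KO call is a description. Gm17300, which overlaps exons of Rcc1, rose in WT (log2 fold change 1.69, SE 0.41, edgeR adjusted p = 0.0133) and did not pass in KO (edgeR adjusted p = 0.123); the WT call was lost without WT I/R 1 (0.0516) or WT sham 3 (0.0528). Rncr4, a retinal lincRNA in earlier work, had 2.0, 2.19 and 1.92 CPM in WT I/R, against 0.211, 0.2 and 0 CPM in WT sham (log2 fold change 3.69, SE 1.01, edgeR adjusted p = 0.0236), few reads whose call was lost with any of the 6 WT libraries left out (edgeR adjusted p up to 0.0985). Rncr4 reached 10 counts in exactly 3 libraries, those of WT I/R. The entry rule thus selected it through the group where it was high, and its WT call is a description only.

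**Figure D3:**
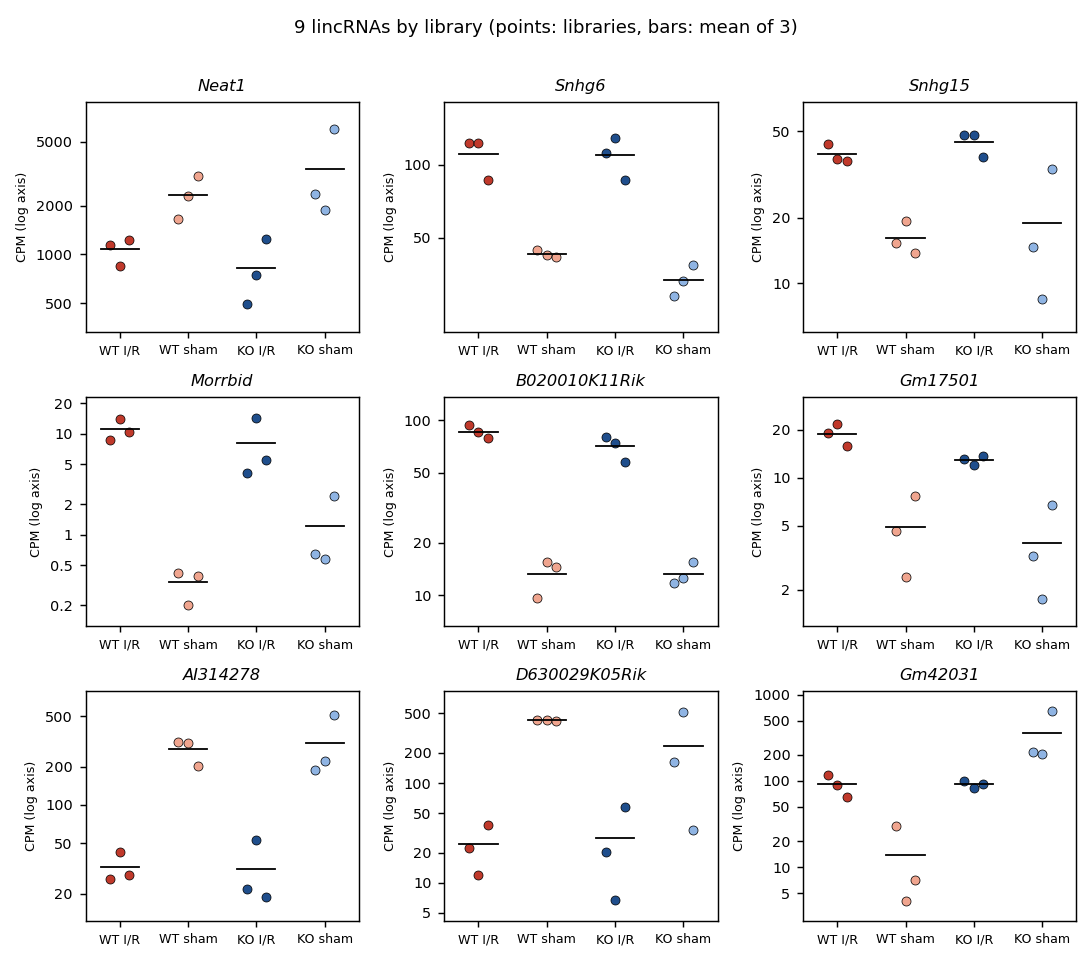
CPM on a log axis of 9 lincRNAs in each of the 12 libraries (points) with the mean of 3 (bar), in the order WT I/R, WT sham, KO I/R, KO sham. Snhg6 and B020010K11Rik separate I/R from sham in both genotypes, D630029K05Rik overlaps in KO through 33.5 CPM in KO sham 3, and Gm42031 is lowest in WT sham and highest in KO sham.

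Among the abundant lincRNAs that fell were AI314278, D630029K05Rik and 9130016M20Rik, all clone-named. AI314278 had 26.2, 43 and 28.2 CPM in WT I/R, against 312, 305 and 204 CPM in WT sham (log2 fold change -3.07, SE 0.48, edgeR adjusted p = 0.0015). It had 21.8, 52.9 and 18.8 CPM in KO I/R, against 188, 223 and 511 CPM in KO sham (log2 fold change -3.30, SE 0.49, edgeR adjusted p = 0.00119). All 6 I/R libraries lay below all 6 sham libraries, and both calls held with each library left out, the KO value being -3.91 without KO I/R 2. D630029K05Rik had 22.4, 12.1 and 38.3 CPM in WT I/R, against 427, 428 and 421 CPM in WT sham (log2 fold change -4.13, SE 0.93, edgeR adjusted p = 0.0096). In KO it had 20.5, 6.74 and 57.6 CPM after I/R, against 163, 514 and 33.5 CPM in sham (log2 fold change -3.06, SE 0.89, edgeR adjusted p = 0.0276). The WT sham libraries nearly coincided while KO sham ran over a wide range and overlapped KO I/R; the KO call was lost without KO I/R 1 (edgeR adjusted p = 0.0898), KO I/R 2 (0.082) or KO sham 2 (0.136, at a log2 fold change of -1.79), and the value was -4.10 without KO I/R 3. 9130016M20Rik, next to A1cf, had 24.1, 23.4 and 35.7 CPM in WT I/R, against 234, 122 and 131 CPM in WT sham (log2 fold change -2.55, SE 0.44, edgeR adjusted p = 0.00221). It had 24.8, 13.7 and 52.3 CPM in KO I/R, against 114, 113 and 115 CPM in KO sham (log2 fold change -1.91, SE 0.43, edgeR adjusted p = 0.00841), with no overlap in either genotype and a KO value of -2.56 without KO I/R 3.

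BC049987, head to head with Treh, had 4.92, 3.47 and 4.18 CPM in WT I/R, against 75.2, 57.3 and 67.5 CPM in WT sham (log2 fold change -3.98, SE 0.89, edgeR adjusted p = 0.00926). It had 9.81, 11.3 and 14.4 CPM in KO I/R, against 3.39, 74.3 and 151 CPM in KO sham (log2 fold change -2.68, SE 0.83, edgeR adjusted p = 0.0361). KO sham 1 was below every KO I/R library, so the KO groups overlapped, and the KO call was lost with 5 of the 6 KO libraries left out (edgeR adjusted p up to 0.127, log2 fold change -1.71 without KO sham 3). Gm10787, near the folate carrier gene Slc19a1, had 0.547, 0 and 1.74 CPM in WT I/R, against 35.4, 12.6 and 10.8 CPM in WT sham (log2 fold change -4.62, SE 0.96, edgeR adjusted p = 0.00621). Leaving out WT I/R 3 or WT sham 1 moved that value to -6.04 and -3.88. In KO I/R it had 1.48, 1.68 and 2.59 CPM, against 4.19, 16.1 and 33 CPM in KO sham (log2 fold change -3.18, SE 0.88, edgeR adjusted p = 0.0225), which was lost without KO I/R 1 (edgeR adjusted p = 0.0759), KO I/R 2 (0.0701) or KO sham 3 (0.0608, at -2.37). Gm6999, which overlaps exons of Olfm4, fell in WT (log2 fold change -4.53, SE 0.84, edgeR adjusted p = 0.00355) and in KO (log2 fold change -2.97, SE 0.77, edgeR adjusted p = 0.0164); the KO call was lost without KO I/R 1 (0.0587) or KO sham 2 (0.0553). Leaving out WT I/R 3 gave -5.27 in WT, and leaving out KO I/R 3 gave -4.05 in KO.

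Some low lincRNAs had nearly no reads after I/R. 1110019B22Rik had 1.64, 0.549 and 0.348 CPM in WT I/R, against 20.4, 15.6 and 15.2 CPM in WT sham (log2 fold change -4.30, SE 0.85, edgeR adjusted p = 0.00476). It had 0.185, 1.2 and 0 CPM in KO I/R, against 14.7, 13.5 and 59.3 CPM in KO sham (log2 fold change -6.04, SE 0.95, edgeR adjusted p = 0.00158). The groups did not overlap, and the value was -5.17 without WT I/R 1 in WT, and lay between -7.95 without KO I/R 2 and -5.01 without KO sham 3 in KO (-5.42 without KO I/R 3). Gm5524, the lincRNA farthest from any coding locus at 873721 bases, had 0.182, 0.366 and 0 CPM in WT I/R, against 10.5, 7.41 and 0.984 CPM in WT sham (log2 fold change -4.95, SE 1.04, edgeR adjusted p = 0.00643), and -5.79 without WT I/R 2. In KO I/R it had 0.37, 0 and 0 CPM, against 6.13, 7.16 and 4.02 CPM in KO sham (log2 fold change -5.22, SE 1.1, edgeR adjusted p = 0.00666), and -7.89 without KO I/R 1. 2310015A16Rik had 0.547, 0.549 and 1.05 CPM in WT I/R, against 4.85, 6.41 and 6.69 CPM in WT sham (log2 fold change -3.02, SE 0.68, edgeR adjusted p = 0.00926). It fell in KO as well (log2 fold change -3.72, SE 0.66, edgeR adjusted p = 0.00273), with -4.36 without KO I/R 2, and its sham libraries of KO ran from 4.64 to 25.5 CPM.

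Gm33472 had 0 counts in all WT I/R libraries and 2.74, 6.21 and 3.35 CPM in WT sham, at least 22.8-fold lower (edgeR adjusted p = 0.00588). In KO it had 0.74, 0 and 0 CPM after I/R, against 1.29, 4.64 and 2.15 CPM in sham (log2 fold change -3.24, SE 1.01, edgeR adjusted p = 0.043), which was lost without any 1 of 4 KO libraries (edgeR adjusted p up to 0.143) or with whole-library totals (-3.20); the value was -6.79 without KO I/R 1 and -2.58 without KO sham 2. 4930434B07Rik also had 0 counts in WT I/R, against 1.47, 2.2 and 1.97 CPM in WT sham, at least 10.5-fold lower (edgeR adjusted p = 0.00486). Its KO I/R libraries had 0.37, 0 and 0 CPM, against 1.77, 1.16 and 1.61 CPM in KO sham (log2 fold change -3.30, SE 0.90, edgeR adjusted p = 0.0249), lost without KO I/R 2 (edgeR adjusted p = 0.0752), KO I/R 3 (0.0754) or KO sham 1 (0.0699) and with no filter on low counts (-3.25), and at -5.97 without KO I/R 1. Both promoters are printed above, and both genes were within a few reads of the floor after I/R. The entry rule selected both through sham libraries only, where they were high, so their calls and folds are descriptions only. Gm47078 and Gm14827 were at 0 in WT I/R too, at least 17.8-fold and 9.88-fold lower than in WT sham (edgeR adjusted p = 0.0236 and 0.0348). Both calls were lost with any 1 of 5 WT libraries left out, with adjusted p up to 0.0748 and 0.0901, and neither passed in KO. WT I/R could not bring either of them into the set, so these calls are descriptions as well.

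Some falls passed in 1 genotype label, which does not show a difference between them. Gm39033 fell in WT (log2 fold change -3.53, SE 1.01, edgeR adjusted p = 0.0281; -6.96 without WT I/R 2) and 2610037D02Rik, near Arid2, fell in WT (log2 fold change -3.21, SE 0.92, edgeR adjusted p = 0.0282; -4.68 without WT I/R 3 and -2.55 without WT sham 3). The first call was lost with any 1 of 5 WT libraries left out and the second with any 1 of 4, with edgeR adjusted p up to 0.108 and 0.127. Gm48898 had 0 counts in KO I/R and 8.23, 8.71 and 5.63 CPM in KO sham, at least 37.6-fold lower (edgeR adjusted p = 0.00137), a call that held with each library left out. In WT it had 0, 0.549 and 0.523 CPM after I/R, against 1.26, 1.0 and 2.56 CPM in sham, without passing (edgeR adjusted p = 0.084). Gm48898 entered the set through sham libraries only, so its KO call is a description. Gm35585 fell in KO (log2 fold change -3.11, SE 0.75, edgeR adjusted p = 0.0121), with -3.97 without KO I/R 1 and -1.90 when KO I/R 2 was read from its FPKM. By contrast Gm11766, next to Baiap2, fell in WT (log2 fold change -1.98, SE 0.42, edgeR adjusted p = 0.00639) and in KO (log2 fold change -3.16, SE 0.45, edgeR adjusted p = 0.000956), both calls holding with each library left out. Over all lincRNAs, 19 of the 38 WT calls (4 rises and 15 falls) and 19 of the 40 KO calls (5 rises and 14 falls) held with each library of their groups left out. The matching share over all genes is not given here.

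Markers of kidney cell types moved in the same libraries as these falls. Of the 4 proximal tubule markers in the table (Slc34a3, Slc5a2, Gatm and Aqp1, of 10 listed), 3 fell in WT and 3 in KO, with sums of 1388 to 1659 CPM in WT I/R, 4535 to 6655 in WT sham, 974 to 1278 in KO I/R and 3131 to 6616 in KO sham. The 4 tubular injury markers (Lcn2, Havcr1, Sox9 and Clu, of 6 listed) all rose in both, with sums of 20060.5 to 27954 CPM in WT I/R, 898 to 1488 in WT sham, 20364 to 42044 in KO I/R and 593 to 1176 in KO sham. No marker of these lists was at 0 throughout. Their part in the lincRNA changes was not tested. Of the other lists, 2 of 3 loop of Henle and distal tubule markers and 1 of 3 collecting duct markers fell in each genotype, 2 of 2 fibroblast markers rose in WT and 1 in KO, 1 of 2 lymphocyte markers fell in WT and 2 in KO, and 0 of 3 globin genes passed. No podocyte or endothelial marker of the lists was in the table.

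**Figure D4:**
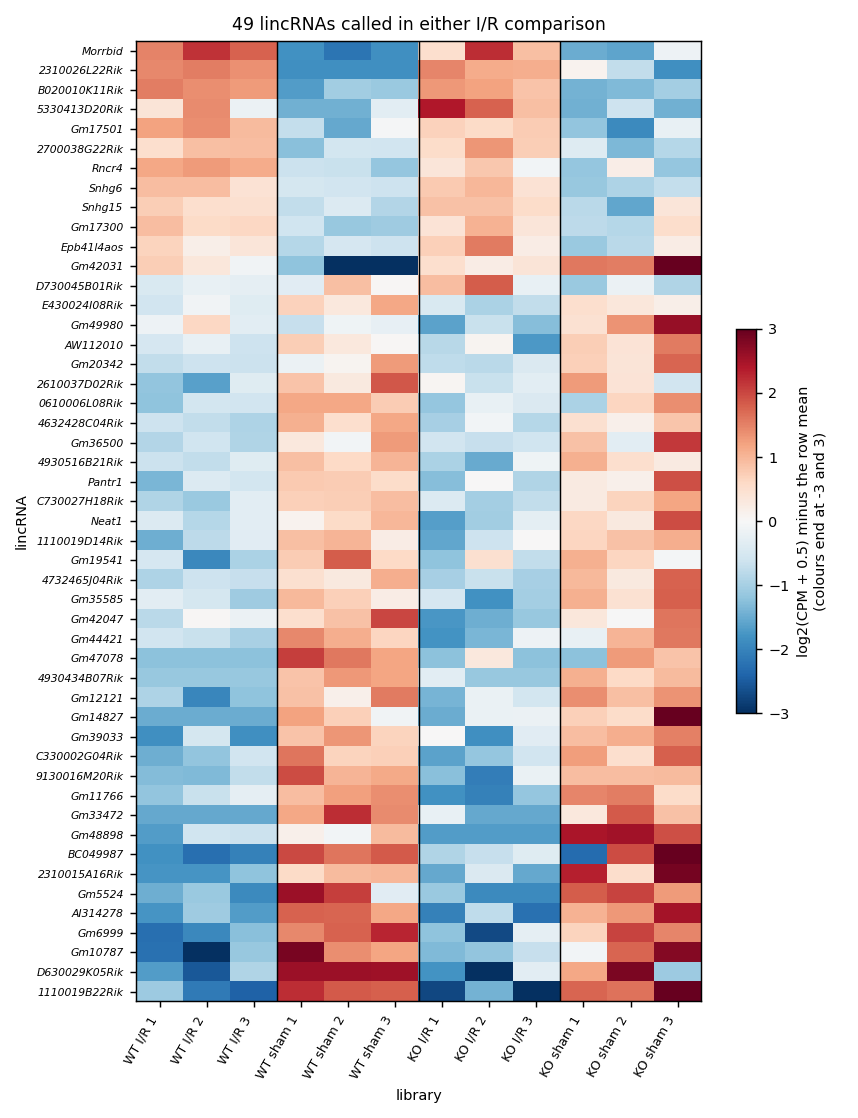
The 49 lincRNAs that passed in either I/R comparison, one per row, in the 12 libraries, as log2(CPM + 0.5) minus the row mean (red high, blue low). The upper rows are higher in I/R libraries and the lower rows higher in sham libraries; KO sham 3 holds the deepest red of many lower rows, and BC049987 is low in KO sham 1.

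Neat1 held the largest part of the lincRNA reads. It had 1151, 847 and 1232 CPM in WT I/R, against 1663, 2295 and 3059 CPM in WT sham (log2 fold change -1.12, SE 0.46, edgeR adjusted p = 0.104). It had 490.0, 744 and 1247 CPM in KO I/R, against 2360.4, 1892 and 5954 CPM in KO sham (log2 fold change -2.04, SE 0.47, edgeR adjusted p = 0.00995). Neat1 fell in KO with no overlap between groups, also with each library left out, at -1.36 without KO sham 3. The WT libraries did not overlap either, but the WT test was not passed. Fitted on the WT libraries alone it was passed (-1.13). Fitted on the KO libraries alone, the KO fall did not pass (-2.04, edgeR adjusted p = 0.0692). The interaction was -0.92 (95% interval -2.32 to 0.48, edgeR adjusted p = 1), so a genotype difference in this fall was not shown. Of the paraspeckle proteins listed beside Neat1, 4 were in the table and 3 were tested. Hnrnpa1 rose in both genotypes (log2 fold change 0.75 in WT and 0.87 in KO, edgeR adjusted p = 0.0235 and 0.011), Hnrnph3 fell in KO (-1.31, edgeR adjusted p = 0.0107), and Hnrnpr did not pass.

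The 130 lincRNAs together held 0.267% to 0.279% of the table's counts in WT I/R, against 0.390% to 0.624% in WT sham, and 0.191% to 0.291% in KO I/R, against 0.466% to 0.750% in KO sham. Every I/R library was below every sham library. Neat1 made up 27.1% to 57.0% of these counts. Without Neat1 the shares were 0.140% to 0.191% in WT I/R, against 0.209% to 0.292% in WT sham, and 0.139% to 0.150% in KO I/R, against 0.233% to 0.323% in KO sham, still without overlap.

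**Figure D5:**
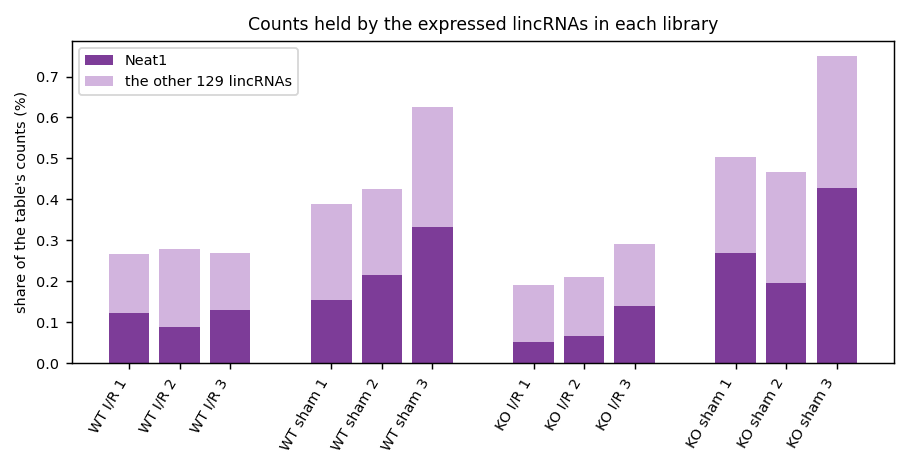
Share of the table's counts in each library held by Neat1 (dark) and by the other 129 lincRNAs (light), in percent. The I/R libraries lie at 0.191% to 0.291% and the sham libraries at 0.390% to 0.750%, with the highest bar in KO sham 3.

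The second question is what the genotype label did. Between KO and WT sham libraries, between KO and WT I/R libraries, and for the interaction, edgeR called 0 lincRNAs, against 0%, 0% and 0% of all 5048 genes. At an unadjusted edgeR p under 0.05 there were 10, 5 and 7 of the 129 lincRNAs tested. Over all 5048 genes there were 285, 140 and 265 (5.65%, 2.77% and 5.25%). DESeq2 called 2, 0 and 2 lincRNAs, both times Gm42031 and Gm49980, and its share over all genes is not given here. Gm42031, a lincRNA near the zinc finger gene Zfp791, had the smallest p in sham. It had 213, 207 and 652 CPM in KO sham, against 30.1, 4.01 and 7.08 CPM in WT sham (log2 fold change 4.70, SE 0.72, edgeR adjusted p = 0.119). In KO I/R it had 101, 82.5 and 92.5 CPM, against 118, 90.0 and 65.9 CPM in WT I/R (log2 fold change 0.01, SE 0.62, edgeR adjusted p = 1). The sham libraries of the genotype labels lay far apart, with KO sham 3 highest, while the I/R libraries overlapped. Gm42031 was picked by its p in these same libraries, so this distance is a description. After I/R it rose in WT (log2 fold change 2.74, SE 0.67, edgeR adjusted p = 0.0139) and fell in KO (log2 fold change -1.96, SE 0.64, edgeR adjusted p = 0.0435), and the interaction was -4.69 with SE 0.92 (edgeR adjusted p = 0.26). The rise in WT was lost without WT sham 3 (edgeR adjusted p = 0.0607) and was 4.04 without WT sham 1; the fall in KO was lost without KO I/R 1 (0.0958), KO I/R 2 (0.118), KO I/R 3 (0.0898) or KO sham 3 (0.149, at -1.19), and with whole-library totals (-1.75). Without WT sham 1 the sham difference was 6.0 (edgeR adjusted p = 0.00853) and the interaction -5.99 (0.03); with no filter on low counts the adjusted p was 0.00244 and 0.0253.

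Gm49980, 614 bases from Pik3c3, was the other lincRNA called by DESeq2. It had 82, 151 and 365 CPM in KO sham, against 36.7, 54.3 and 50.2 CPM in WT sham (log2 fold change 2.08, SE 0.49, edgeR adjusted p = 0.311). After I/R it had 19.1, 37.3 and 24 CPM in KO, against 53.6, 91.6 and 47.4 CPM in WT (log2 fold change -1.26, SE 0.48, edgeR adjusted p = 1). The KO sham libraries were all above WT sham and the KO I/R libraries all below WT I/R. Gm49980 was likewise picked by its p in these libraries, so this separation is a description. It fell after I/R in KO (log2 fold change -2.90, SE 0.51, edgeR adjusted p = 0.00265; -2.12 without KO sham 3) and did not pass in WT (log2 fold change 0.45, SE 0.47, edgeR adjusted p = 0.528). The interaction was -3.34 with SE 0.69 (edgeR adjusted p = 0.318). Without KO sham 3 its sham difference was 1.31. Gm48898 was the lincRNA of smallest p in KO I/R against WT I/R, with 0 counts in KO I/R, against 0, 0.549 and 0.523 CPM in WT I/R (edgeR adjusted p = 1).

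Next to the lincRNAs, the nearest protein-coding gene was tested in 30 cases. For comparison, 20.9% of all 5048 genes tested passed in WT and 23.5% in KO. The few pairs of lincRNA and neighbour that passed cannot show a link. In WT, 6 of these pairs had a lincRNA that passed, and the neighbour passed in 0 of them. In KO, 5 pairs had one, and the neighbour passed in 2, both with the opposite sign: AW112010, known for a role in mouse macrophages, fell in KO (log2 fold change -1.78, SE 0.52, edgeR adjusted p = 0.0289) while Ms4a8a rose, and Gm36500 fell (log2 fold change -2.50, SE 0.78, edgeR adjusted p = 0.0379) while the tubulin gene Tubb2b rose. Ms4a8a had 4.63, 3.85 and 1.48 CPM in KO I/R and 0 counts in KO sham (edgeR adjusted p = 0.00434). Ms4a8a also rose in WT (log2 fold change 3.25, SE 0.99, edgeR adjusted p = 0.0419), where AW112010 did not pass (edgeR adjusted p = 0.228). Tubb2b had 1263, 1046 and 859.9 CPM in KO I/R, against 154, 54.6 and 74.0 CPM in KO sham (log2 fold change 3.48, edgeR adjusted p = 0.000597). The AW112010 call was lost without KO I/R 1 (edgeR adjusted p = 0.0898), KO I/R 3 (0.0747) or KO sham 3 (0.0717), and was -2.43 without KO I/R 2; the Gm36500 call was lost with 5 of 6 libraries left out (up to 0.135), with -1.56 without KO sham 3 and an adjusted p of 0.0522 when KO I/R 2 was read from its FPKM. Pou3f3 was not among the genes tested, but its head-to-head partner Pantr1 had 6.29, 16.1 and 8.31 CPM in KO I/R, against 19.2, 17.8 and 62.5 CPM in KO sham (log2 fold change -1.69, SE 0.52, edgeR adjusted p = 0.0351), with -0.86 without KO sham 3 (edgeR adjusted p = 0.136), and calls also lost without KO I/R 1 (0.115) or KO I/R 3 (0.09).

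Other lincRNAs showed no change that passed. The 5 microRNA hosts gave 0 rises and 0 falls: 4833445I07Rik, the host of Mir191 and Mir425, averaged 2.75 ± 0.544 CPM in WT I/R and 3.0 ± 1.43 in WT sham, and 4.24 ± 0.291 in KO I/R and 4.55 ± 1.47 in KO sham (SD, n = 3 each). Its log2 fold change was -0.12 in WT (95% interval -1.10 to 0.87), an interval that does not show an absence of change. Gm48228 averaged 14.8 ± 3.81 CPM in WT I/R and 12.1 ± 1.17 in WT sham, and 2010320M18Rik, head to head with Pik3r2, averaged 60.2 ± 4.78 CPM in WT I/R and 39.9 ± 7.91 CPM in WT sham, also without passing. Fitted on the WT libraries alone, 2010320M18Rik passed (log2 fold change 0.59). Erdr1 varied widely within the WT groups, with 0, 407 and 0 CPM in WT I/R, 146, 0 and 264 in WT sham, 61.1, 171 and 58.5 in KO I/R and 179, 207 and 693 in KO sham. Its spread left the change undefined (log2 fold change -0.01, SE 1.90 in WT); without WT I/R 2 the WT value was -12.4 and passed, with both remaining WT I/R libraries at 0, so that it is no size. Its values of 0 stand beside high values in libraries of the same group. Gm37245 was detected in 3 libraries only, with 4.92 CPM in WT sham 3, 2.03 in KO I/R 3 and 9.09 in KO sham 2. Of the microRNA host, imprinted, X inactivation and stress or inflammation lists, only Morrbid was among the lincRNAs described, and 2, 2, 1 and 3 genes of them were tested. The microRNA host list gave 1 rise in each genotype, the imprinted list 1 fall in KO, the X inactivation list none, and the stress list 2 rises in WT and 1 in KO, Morrbid included. The kidney and steroid list gave 2 genes in the table and 0 tested.

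At the edge of the count rule, 12 lincRNAs had at least 10 counts in exactly 3 libraries and 15 lincRNAs in exactly 2. Those just inside had total counts of 49 to 97 over all libraries, and those just outside 46 to 72. Inside were Rncr4, 4930434B07Rik, Gm38563, Gm36500, Gm14827 and Gm37245, and outside were Mir181a-1hg, Gm26608 and Gm29340, each with a third-highest count of 9. Of the 12 just inside, 11 were tested and 6 passed in at least 1 I/R comparison, as did 49 of all 129 lincRNAs tested. Over all 5048 genes, 20.9% passed in WT and 23.5% in KO, each comparison taken singly. The entry rule used the same counts, so the number that passed at this edge is a description. All results of these edge lincRNAs rest on few reads.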

How the data were processed

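Per the submitters' processing notes, HISAT2 and StringTie were used on paired-end TruSeq libraries of total kidney RNA. The authors deposited a table of raw counts and FPKM per gene and library. Tool versions, the build, the counting method and the strand setting were not stated in the sources used here. The loci matched GENCODE release 21 of the mouse series (M21, GRCm38). The deposited FPKM followed from the counts in 11 libraries, but its length sums overlapping exons, so levels per length were recomputed over merged exons. For KO I/R 2, whose FPKM and counts differ, the deposited counts were kept, and reads recovered from its FPKM (99.6% within 0.1 of a whole number) were an alternative.

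The table's counts summed to between 4678827 and 5456261 per library, 27.4% to 31.6% of the whole-library totals implied by the FPKM scale. Counts were scaled by TMM in edgeR 4.0.16 (R 4.3.3), filtered with filterByExpr (minimum count 10, minimum total 15), fitted in 1 quasi-likelihood model of the 4 groups and adjusted by Benjamini-Hochberg over 5048 genes at 0.05. CPM are TMM-scaled. DESeq2 1.42.0, other scaling, filters and sample sets, a replicate block and leaving out each library were alternatives. The scripts were tested on simulated data. Floors of 3 counts cover counting error only, and 95% intervals come from the edgeR fit. Python 3.11.15 and pandas 2.3.3 made the tables.

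The lincRNAs, gene lists and marker lists (nuclear body, snoRNA host, microRNA host, imprinted, X inactivation, stress, kidney or steroid, paraspeckle proteins, kidney cell types) were chosen with earlier results of these data known. Named were the 12 largest rises and falls that passed without overlap in each I/R comparison, the 2 of smallest p in the other comparisons, every list member, the 10 of highest level and those at the edge of the rule. AW112010, Gm36500 and Pantr1 were named after their values were seen, as was the split at the median CPM. Gm15441 was left out.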

Additional observations from a re-analysis of the deposited data

Results flagged for a closer look

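Differences in the I/R response stood out for Gm42031 and Gm49980. By the DESeq2 test of the interaction, the I/R effect in KO minus that in WT was -4.67 on the log2 scale for Gm42031 (DESeq2 adjusted p = 0.000177), while edgeR gave -4.69 (edgeR adjusted p = 0.260). For Gm49980 it was -3.32 (DESeq2 adjusted p = 0.00276), against -3.34 by edgeR (edgeR adjusted p = 0.318). All 3 KO sham libraries exceeded all 3 WT sham libraries for both genes, KO sham 3 was highest for both, and without it the edgeR interactions were -3.93 and -2.57. Both genes were picked by their p in these same libraries, so this separation is a description. The share of all genes separated in this way is not given here.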

How the results depend on the processing

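Of the named values under alternatives, 931 kept direction and side of the threshold, 96 no longer passed, 17 newly passed and 16 changed sign. In WT, 38 lincRNAs passed, and 29 to 51 under the alternatives that kept all libraries, with 23 to 28 when a library was left out. In KO, 40 passed and 14 on the KO libraries alone, 32 to 46 under the other alternatives that kept all libraries, and 22 to 36 when a library was left out; the cause was not tested. KO sham against WT sham gave 0, but 1 with no filter, 2 by DESeq2 and 0 to 1 with a library left out; the interaction gave the same counts, 1, 2 and 0 to 1, while KO I/R compared with WT I/R gave 0 throughout. Whole-library totals moved the median of all genes by 0.14 in WT, -0.14 for KO over WT within I/R and -0.11 in the interaction; the lincRNA median in WT was then -0.45, with 14 rises and 27 falls.

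Of the values that changed sign, only Erdr1 in WT passed in any setting tried, at -12.4 without WT I/R 2. With whole-library totals they were 0.0434 for 4833445I07Rik in WT, 0.0847 for Gm48228 in KO and 0.0799 for Erdr1 in WT; with no filter, 0.0139 for Gm48228 and 0.0332 for Erdr1; with recovered reads, 0.0157 for Gm48228. With a library left out the ranges were -0.28 to 0.0385 for 2900076A07Rik in WT, -0.43 to 0.27 in WT and -0.28 to 0.17 in KO for 4833445I07Rik, -6.98 to 4.91 for Gm37245 in KO, -0.32 to 0.38 for Gm48228 in KO and -12.4 to 0.90 for Erdr1 in WT.

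With the replicate number as a block, 39 lincRNAs passed in WT (36 shared) and 35 in KO (33 shared). Of the named values, the block ended the calls of Snhg15 in WT (edgeR adjusted p = 0.0653) and of Snhg15 (0.0584), 2310026L22Rik (0.0528), Gm33472 (0.0811), D630029K05Rik (0.0598) and Gm42031 (0.0528) in KO, and Neat1 passed in WT (0.0446). No label pairs the libraries by number. Of 18 same-numbered pairs, 5 had a correlation over 0.1, and all lay between -0.370 and 0.299. Pairs of different numbers lay between -0.359 (KO I/R 2 with KO sham 1) and 0.430 (KO I/R 2 with KO sham 3). Such correlations cannot exclude a pairing. Few reads limit the lincRNAs near 10 counts.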
